A study of Homo sapiens with 6 samples.

Results

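The genes of the T-box family reported here were followed through maps of H3K27me3, the repressive trimethylation of lysine 27 on histone H3, in B cell lymphoma lines. The 9 genes are TBX1, TBX2, TBX3, TBX4, TBX5, TBX15, TBX18, TBX20 and T (brachyury). They are represented here by the enriched intervals, called islands, that lie within 5 kb of each gene's hg19 limits, which were given rounded to 1 kb. This rule found 12 of the 21320 listed islands in Pfeiffer, 10 of 23180 in WSU-DLCL2 and 16 of 28472 in KARPAS-422. An island that met 2 genes was counted once. Pfeiffer, WSU-DLCL2 and KARPAS-422 are established lines of diffuse large B cell lymphoma that the labels all give as EZH2 mutant, so no line with unmutated EZH2 is compared here. EZH2 is the enzyme that writes the mark. The labels add average gIC50 values of 28, 134 and 232 nM in that order, and the study's question was how the mark is laid out in lines that respond differently to the EZH2 inhibitor GSK126. The cells were kept in culture without a labelled compound treatment, fixed, and profiled with 1 immunoprecipitated and 1 input library per line. There is therefore no replicate spread for any difference between lines, and no test between lines was made. Autosomal islands held between 16039824 and 17188115 H3K27me3 reads and between 5694645 and 8800268 input reads per line, and their median fold over input was 1.58, 1.54 and 1.61.

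T-box proteins are transcription factors that share a DNA-binding domain, the T-box, and act in the embryo in laying down mesoderm, heart, limbs and pharynx. In cells outside these lineages the genes are usually silent, and Polycomb repressive complex 2, of which EZH2 is the catalytic subunit, is known to mark many such developmental regulators with H3K27me3. The family falls into subfamilies by sequence. TBX1, TBX15, TBX18 and TBX20 belong to the TBX1 subfamily, TBX2 to TBX5 to the TBX2 subfamily, and T to that of brachyury. Defining genes of B cells and the remaining T-box genes were not analysed here, because no hg19 annotation was used.

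The start regions of 3 of the genes are shown because their genes span the range of outcomes: TBX1 lay inside an island in every line, T in 1 line, and TBX18 in none. Each sequence is the 250 bases before the outermost RefSeq start, on GRCh38.p14 and 5′ to 3′ on the gene's strand, with CpG dinucleotides in capitals. These positions are on another build than the islands and were not compared with them.
TBX1 (chr22:19756453-19756702, plus strand): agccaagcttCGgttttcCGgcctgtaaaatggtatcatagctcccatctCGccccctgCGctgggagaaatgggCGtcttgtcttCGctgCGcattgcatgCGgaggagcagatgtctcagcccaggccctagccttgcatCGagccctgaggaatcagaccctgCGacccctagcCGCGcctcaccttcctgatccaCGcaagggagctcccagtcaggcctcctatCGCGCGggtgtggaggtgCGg
T (RefSeq symbol TBXT, chr6:166168656-166168905, minus strand): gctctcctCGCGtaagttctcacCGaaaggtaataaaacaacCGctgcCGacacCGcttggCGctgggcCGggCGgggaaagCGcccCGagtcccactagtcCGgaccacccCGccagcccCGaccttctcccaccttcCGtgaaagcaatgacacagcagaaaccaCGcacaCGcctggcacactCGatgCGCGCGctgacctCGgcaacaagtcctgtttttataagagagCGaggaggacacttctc
TBX18 (chr6:84764599-84764848, minus strand): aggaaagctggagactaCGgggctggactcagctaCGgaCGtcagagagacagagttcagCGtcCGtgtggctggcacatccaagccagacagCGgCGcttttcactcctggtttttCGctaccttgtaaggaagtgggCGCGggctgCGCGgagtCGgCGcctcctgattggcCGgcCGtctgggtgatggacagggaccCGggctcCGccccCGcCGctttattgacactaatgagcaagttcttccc
All 3 stretches held more CpG than the median RefSeq promoter stretch, but none lay above the upper quartile. The TBX1 stretch holds 17 CpG, that of T holds 23 and that of TBX18 holds 20, against a median of 11 (quartiles 3 and 23) over 35114 RefSeq promoter stretches of the same length. The uncovered TBX18 thus had a few CpG more than the covered TBX1. RefSeq sequences were matched for 6 of the 9 genes, with 8 starts in all. Among these 8, the number of CpG ran from 13 at a TBX5 start to 31 at TBX20. The T-box half-site AGGTGTGA, searched on both strands as AGGTGTGA and TCACACCT, was in none of the 8 stretches and in 0.786% of all of them.

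Most T-box genes met an island, and Pfeiffer had the most genes covered over nearly their full span. Pfeiffer had at least 1 island within 5 kb of 8 genes, WSU-DLCL2 of 6 and KARPAS-422 of 8. Of all 73806 autosomal windows of 39 kb, the median length of a gene with its 5 kb on either side (its span), 39.4%, 39.9% and 41.7% met an island in the same lines. In all 3 lines an island was present at 6 genes (29.0% of windows), and TBX18 was the 1 gene with none in any line (48.5% of windows). At least 90% of the span was covered at 4 genes in Pfeiffer (TBX1, TBX2, TBX3 and TBX4), at TBX2 and TBX4 in WSU-DLCL2 and at TBX1 and TBX4 in KARPAS-422, where the background was 12.9%, 11.4% and 10.3% of windows. In Pfeiffer TBX2 and TBX4 lay in the same island. Of windows of 20 kb, the length of the shortest span (TBX2), 15.4%, 14.0% and 12.5% were covered that far. The median covered share of the 9 spans was 83.0%, 35.6% and 35.2%, and that of the windows was 0% in each line. Pooled over the bases of all 9 spans the lines lay closer, with 47.2% covered for Pfeiffer, 41.6% for WSU-DLCL2 and 44.8% for KARPAS-422. Over islands with a false discovery rate of at most 1e-10 the median was 83.0%, 10.2% and 17.3% and the pooled share 44.7%, 29.6% and 31.7%, the latter chosen after seeing the data. The surroundings were often marked as well. Over all islands, the median covered share of the adjoining 100 kb on either side was 62.4%, 22.5% and 41.75%. A span was covered more than these flanks at 6, 5 and 4 of the 9 genes. Longer stretches meet islands more often: of windows of 118 kb, the length of the longest span (TBX15), 50.8%, 52.1% and 54.1% did so. The lists hold called intervals only, so a stretch outside them may still hold reads that fell short of a call. A mark on part of the cells or alleles cannot be told apart here from a weaker mark on all of them.

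**Figure D1:**
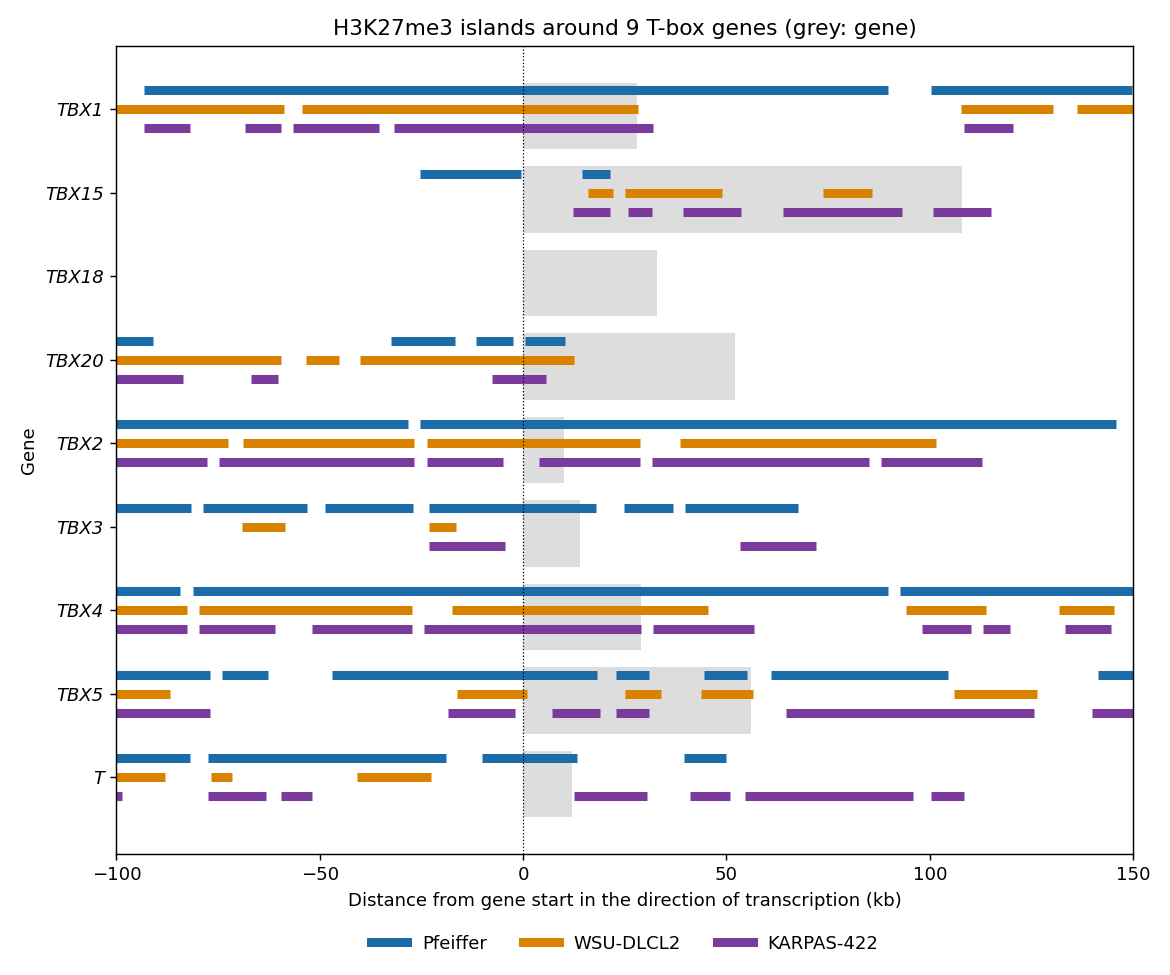
Horizontal position is the distance in kb from each gene's start, read in the direction of transcription, and each bar is 1 H3K27me3 island in Pfeiffer (top), WSU-DLCL2 (middle) or KARPAS-422 (bottom); grey boxes are the genes. Bars run through the starts of TBX1 and TBX4 in all 3 lines, stop short of the TBX2 and TBX5 starts in KARPAS-422, and are missing around TBX18.

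**Figure D2:**
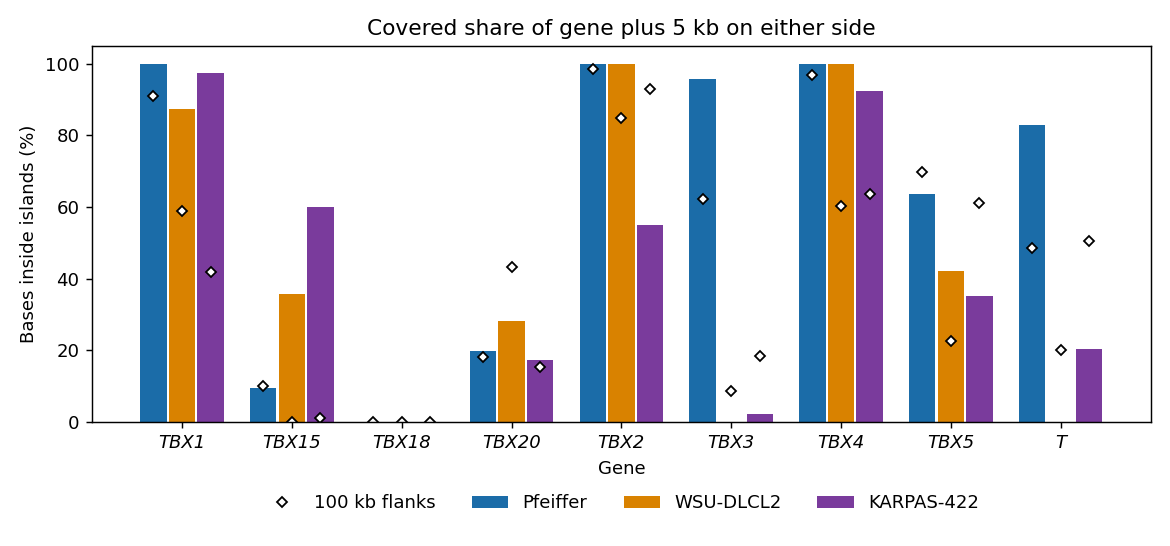
Bars give the percentage of bases of each gene plus 5 kb on either side that lie in islands, 1 bar per line, and diamonds give the same percentage in the adjoining 100 kb on either side. TBX3 runs from 95.8% in Pfeiffer to 0% in WSU-DLCL2, T from 83.0% to 0%, and TBX15 from 9.53% in Pfeiffer to 59.96% in KARPAS-422, a range that narrows to between 9.53% and 15.5% over the lines at a false discovery rate of at most 1e-10.

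TBX1, the gene on chromosome 22 (hg19 chr22:19744000-19772000) known for its part in pharyngeal and outflow tract development and in DiGeorge syndrome, carried the islands with the highest folds among the 9 genes. Its span was covered over 100% for Pfeiffer, 87.5% for WSU-DLCL2 and 97.4% for KARPAS-422, and the gene itself over its full length in every line. The island in Pfeiffer ran over 183 kb (chr22:19650751-19833750) with 5273 H3K27me3 and 2125 input reads. In WSU-DLCL2 it ran over 82.5 kb (chr22:19689751-19772250) with 3248 and 939 reads, and in KARPAS-422 over 63.75 kb (chr22:19712251-19776000) with 1846 and 336 reads. Each line thus had 1 island over the gene, longest in Pfeiffer and nested from line to line on the upstream side. The authors' fold was 2.14 (95% exact interval 2.03 to 2.25), 2.73 (2.53 to 2.93) and 3.34 (2.97 to 3.76), above 94.2%, 99.1% and 99.1% of the autosomal islands of each list. These intervals, like those below, cover counting error only, because each line has 1 immunoprecipitated and 1 input library. Amplified copies of a molecule cannot be recognised in these counts and were not allowed for. Each fold is the authors' value on its own line's libraries. Input reads per kb in the TBX1 island, relative to the line's autosomal median, were 1.07, 1.04 and 0.688. The part of the lower input in the higher KARPAS-422 fold was not tested. Downstream, the Pfeiffer island went on for 61.75 kb past the gene end, while those of WSU-DLCL2 and KARPAS-422 stopped 0.250 and 4.00 kb past it.

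TBX15, a regulator of skeletal development on the minus strand of chromosome 1 (hg19 chr1:119425000-119533000), was the least covered of the genes that met an island in Pfeiffer. Covered share was 9.53% for Pfeiffer, 35.6% for WSU-DLCL2 and 59.96% for KARPAS-422, in 2, 3 and 5 islands that held 612, 748 and 1329 H3K27me3 reads. Most of this spread lay in islands with a false discovery rate above 1e-10: with those left out the shares were 9.53%, 10.2% and 15.5%. A short island recurred inside the gene, at chr1:119511751-119518500 for Pfeiffer, chr1:119511001-119517000 for WSU-DLCL2 and chr1:119511751-119520750 for KARPAS-422. Its fold was 1.88 (1.41 to 2.53), 1.64 (1.20 to 2.27) and 1.45 (1.10 to 1.93), and the intervals overlap. Its false discovery rate was 7.3e-13 for Pfeiffer, 1.7e-07 for WSU-DLCL2 and 1.5e-06 for KARPAS-422. At the stricter rate it was therefore kept in Pfeiffer only. The other Pfeiffer island, chr1:119533501-119558250, lay upstream, with its near edge 0.5 kb before the gene start. KARPAS-422 had further islands along the gene body, with folds between 1.30 and 1.87. Outside the span islands were sparse, with 10.1%, 0% and 1.00% of the adjoining 100 kb on either side covered.

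TBX18, which acts in the sinoatrial node and the ureter, lay in a long stretch without islands (hg19 chr6:85442000-85475000, minus strand). The nearest island was 628.75 kb from the gene in Pfeiffer, 496.25 kb in WSU-DLCL2 and 194.5 kb in KARPAS-422. These islands had low folds of 1.36, 1.38 and 1.31. Relative input, the input reads per kb of the islands within 2.5 Mb of a gene over the line's autosomal median, was taken as a rough gauge of DNA copy number. It was 0.951, 0.967 and 1.01 around TBX18, so input was not low in the islands of that region in any line. Input inside the empty stretch itself was not measured here, because reads are listed for islands only.

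TBX20, a heart transcription factor (hg19 chr7:35242000-35294000, minus strand), carried the mark at its 5′ end in all 3 lines and not along the rest of the gene. Covered share was 19.8%, 28.2% and 17.3%. In Pfeiffer islands lay at chr7:35283751-35293500 (163 H3K27me3 and 72 input reads) and chr7:35296501-35305500 (166 and 77 reads). KARPAS-422 had chr7:35288251-35301750 (216 and 79 reads), and WSU-DLCL2 had a longer island of 52.5 kb at chr7:35281501-35334000 (1212 and 729 reads). The folds were 1.95 and 1.86 for Pfeiffer, 1.31 for WSU-DLCL2 and 1.66 for KARPAS-422, so the longest island had the lowest fold. Relative input around the gene was 0.981, 1.43 and 1.04. WSU-DLCL2 thus had the longest island where its input was raised, and the part of input in this was not tested.

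TBX2 and TBX4 are neighbours on the plus strand of chromosome 17, 46.0 kb apart, and shared a broad region of the mark. TBX2 (hg19 chr17:59477000-59487000) encodes a repressor active in heart and limb, and TBX4 (hg19 chr17:59533000-59562000) acts in hindlimb and lung. In Pfeiffer 1 island of 171 kb (chr17:59451751-59622750, 5256 H3K27me3 and 2714 input reads) held both genes and all of the interval between them. WSU-DLCL2 had 2 islands across the pair, at chr17:59453251-59505750 (1219 and 525 reads) over TBX2 and chr17:59515501-59578500 (1457 and 706 reads) over TBX4. KARPAS-422 had 4, at chr17:59453251-59472000 (540 and 123 reads), chr17:59481001-59505750 (538 and 162), chr17:59508751-59562000 (1179 and 388) and chr17:59565001-59589750 (477 and 176). From the first gene's span to the last, 100%, 89.7% and 84.2% of the bases were covered, so the lines differed more in the number of islands than in the bases covered. WSU-DLCL2 and KARPAS-422 shared the outer left limit at base 59453251 and the limit at base 59505750, to the 750-base window in which islands are placed.

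The TBX2 start was covered in 2 lines and left out in KARPAS-422. There a gap of 9 kb (chr17:59472001-59481000) ran from 5.00 kb before the start to 4.00 kb after it. TBX2 was covered over 100% of the span for Pfeiffer, 100% for WSU-DLCL2 and 55.0% for KARPAS-422. The KARPAS-422 islands on the sides of the gap had folds of 2.67 (2.19 to 3.27) and 2.02 (1.69 to 2.42), against 1.67 (1.59 to 1.75) in Pfeiffer and 1.83 (1.65 to 2.03) in WSU-DLCL2. Input reads per kb in the TBX2 islands, relative to the line's autosomal median, were 1.46 for Pfeiffer, 0.913 for WSU-DLCL2 and 0.856 for KARPAS-422. H3K27me3 reads per kb were 30.7, 23.2 and 24.8. The part of input in these folds was not tested. TBX4 was covered over 100%, 100% and 92.3%, with no gap at its start in any line. WSU-DLCL2 had a fold of 1.63 (1.49 to 1.78) there and KARPAS-422 folds of 1.85 (1.65 to 2.08) and 1.65 (1.38 to 1.97), beside the 1.67 of the shared Pfeiffer island. Relative input around TBX2 was 1.35 for Pfeiffer, 0.924 for WSU-DLCL2 and 0.972 for KARPAS-422. The single long Pfeiffer island therefore lies where its input was raised, and the part of input in its length was not tested.

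TBX5 and TBX3 are neighbours on the minus strand of chromosome 12, 261 kb apart, and here the lines differed in how much was covered. TBX5 (hg19 chr12:114791000-114847000) is the forelimb and heart gene mutated in Holt-Oram syndrome, and TBX3 (hg19 chr12:115108000-115122000) the limb and mammary gene of ulnar-mammary syndrome. Over the interval between the genes, islands covered 55.2% for Pfeiffer, 11.4% for WSU-DLCL2 and 23.9% for KARPAS-422. From the first span to the last there were 10, 4 and 6 islands. Relative input around TBX3 was 0.961, 1.04 and 0.967, and the part of input in the difference was not tested.

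TBX3 itself lay inside an island in Pfeiffer only. The island, chr12:115104001-115145250, held 732 H3K27me3 and 312 input reads at a fold of 2.02 (1.77 to 2.31) and covered 95.8% of the span. In KARPAS-422 the nearest island, chr12:115126501-115145250 (285 and 86 reads, fold 2.01, 1.58 to 2.59), stayed 4.50 kb upstream of the gene and reached 500 bases into the span. In WSU-DLCL2 it was chr12:115138501-115145250 (126 and 49 reads, fold 2.03), 16.5 kb upstream and outside the span. All 3 islands ended at the same upstream base, 115145250, and had like folds, but they reached toward the gene by different lengths. Input reads per kb in the TBX3 island, relative to the line's autosomal median, were 0.697 for Pfeiffer and 0.599 for KARPAS-422. H3K27me3 reads per kb there were 0.903 and 0.757 of the list median. The part of the low input in these folds was not tested.

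TBX5 was covered in pieces in each line. Covered share was 63.6% for Pfeiffer, 42.0% for WSU-DLCL2 and 35.2% for KARPAS-422, in 4, 3 and 3 islands with 2228, 751 and 724 H3K27me3 reads. At a false discovery rate of at most 1e-10 it was 47.7%, 9.09% and 35.2%, so the order of WSU-DLCL2 and KARPAS-422 turned. An island inside the gene had the same limits, chr12:114816001-114824250, in Pfeiffer (157 and 72 reads) and KARPAS-422 (163 and 48 reads), with folds of 1.88 (1.41 to 2.52) and 2.06 (1.49 to 2.91). WSU-DLCL2 had one at chr12:114813001-114822000 with a fold of 1.41 (1.09 to 1.83). At the 5′ end, Pfeiffer had an island of 65.25 kb over the gene start (chr12:114828751-114894000, fold 1.80) and WSU-DLCL2 one of 17.25 kb (chr12:114846001-114863250, fold 1.68). The latter reached only 0.999 kb past the start, which is within the rounding of the gene limits. KARPAS-422 instead had a gap of 9 kb (chr12:114840001-114849000), from 2.00 kb before the start to 7.00 kb after it, with islands of fold 1.89 and 1.90 on its sides.

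T, or brachyury, the founding member of the family and a factor of early mesoderm and notochord, was marked in Pfeiffer and not over the gene in the other lines (hg19 chr6:166571000-166583000, minus strand). Pfeiffer had an island of 23.25 kb over the whole gene (chr6:166569751-166593000) with 439 H3K27me3 and 208 input reads and a fold of 1.82 (1.54 to 2.15). KARPAS-422 had an island that ended 0.5 kb short of the 3′ end of the gene (chr6:166552501-166570500, 321 and 163 reads). Its fold was 1.20 (0.988 to 1.45), with an authors' false discovery rate of 0.00091, and only 1.06% of the list's autosomal islands had a lower fold. It was lost at a false discovery rate of at most 1e-10. In WSU-DLCL2 the nearest island lay 22.75 kb upstream (chr6:166605751-166623750, fold 1.28). The mark was common in the surroundings in Pfeiffer and KARPAS-422, where 48.5% and 50.5% of the adjoining 100 kb on either side was covered, against 20.1% in WSU-DLCL2. Relative input around T was 0.981, 0.905 and 0.917 in Pfeiffer, WSU-DLCL2 and KARPAS-422.

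By subfamily, the TBX2 group was covered most in Pfeiffer. In the TBX1 group most of the spread between lines lay in islands with a false discovery rate above 1e-10. Pooled over TBX2, TBX3, TBX4 and TBX5, islands covered 83.2% of the spans for Pfeiffer, 58.2% for WSU-DLCL2 and 47.5% for KARPAS-422. At a false discovery rate of at most 1e-10, an alternative chosen for these pooled shares after seeing the data, they were 76.2%, 43.6% and 47.5%. The order of WSU-DLCL2 and KARPAS-422 in the TBX2 group thus turned. Over TBX1, TBX15, TBX18 and TBX20 the shares were 23.6%, 35.5% and 45.4%, and at the stricter rate 23.6%, 24.0% and 25.3%. TBX15 has the longest span of that group. At TBX1 Pfeiffer was the most covered of the lines, and at TBX20 WSU-DLCL2 was. These are descriptions of 4 genes each, and the difference between subfamilies was not tested.

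**Figure D3:**
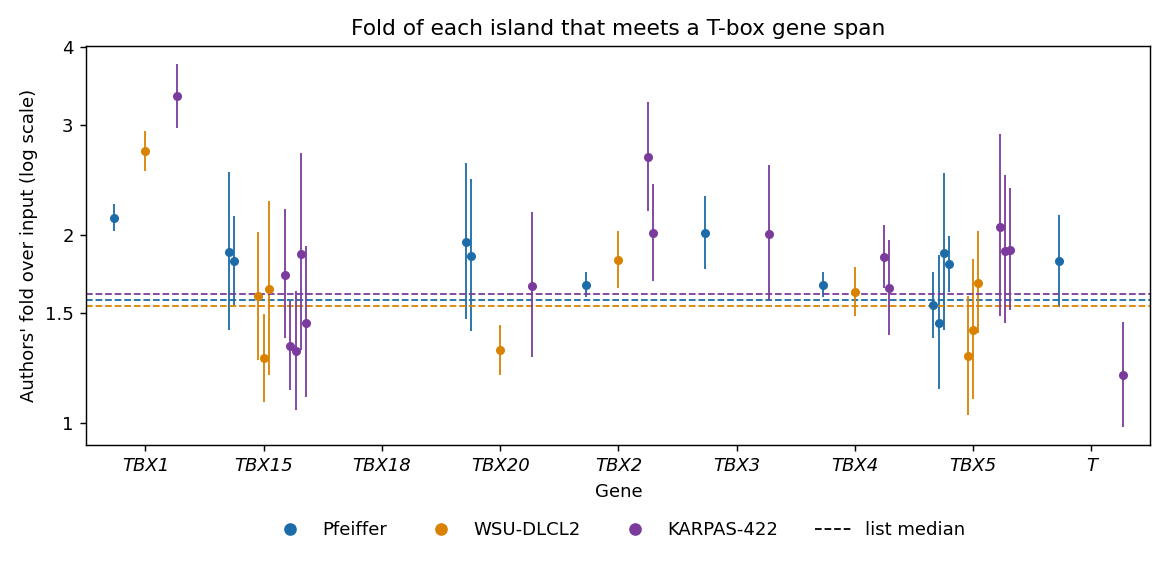
Each point is the authors' fold over input of 1 island that meets a gene with 5 kb on either side, on a log axis, with its 95% exact counting interval; dashed lines are the median fold of each line's autosomal islands. TBX1 is the highest gene in every line, and some islands lie below their dashed lines (2 for Pfeiffer, 4 for WSU-DLCL2, 4 for KARPAS-422), at TBX5, TBX15, TBX20 and T.

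The islands at T-box genes had somewhat higher folds than their lists in Pfeiffer and KARPAS-422, and lay near the list in WSU-DLCL2. TBX1 was at the top in each line. Their median fold was 1.84 for Pfeiffer, 1.61 for WSU-DLCL2 and 1.86 for KARPAS-422, and 10 of 12, 6 of 10 and 12 of 16 islands lay above the median of their list. Folds of 2 or more were found at 2, 1 and 5 islands, and at 10.5%, 11.3% and 19.6% of all autosomal islands. In Pfeiffer these were at TBX1 and TBX3, in WSU-DLCL2 at TBX1, and in KARPAS-422 at TBX1, TBX2 (2 islands), TBX3 and TBX5. H3K27me3 reads per kb did not stand above the lists in the same way: 3 of 12, 4 of 10 and 6 of 16 islands lay above the list median, and the median over these islands was 18.5, 20.7 and 19.7, against list medians of 19.7, 20.9 and 20.1. Pooled over all bases of the islands, so that long islands weigh more, it was 24.9, 26.05 and 21.6. By gene it was highest over TBX2 and TBX4 in Pfeiffer (30.7) and over TBX1 in WSU-DLCL2 (39.4) and KARPAS-422 (29.0). Input reads per kb in the Pfeiffer islands, relative to the line's autosomal median, were 1.46 at TBX2 and TBX4 and 1.07 at TBX1. They were 0.697 at TBX3, 0.732 at TBX20, 0.824 at T, 0.825 at TBX5 and 0.840 at TBX15. For WSU-DLCL2 they ran from 0.909 at TBX15 to 1.27 at TBX20, and for KARPAS-422 from 0.599 at TBX3 to 1.18 at T. The part of input in these reads per kb and folds was not tested.

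Gene starts were covered most often in Pfeiffer and least often in KARPAS-422. Pfeiffer had an island over the start of 6 genes (TBX1, TBX2, TBX3, TBX4, TBX5 and T), at 5 in WSU-DLCL2 (TBX1, TBX2, TBX4, TBX5 and TBX20) and at 3 in KARPAS-422 (TBX1, TBX4 and TBX20). Islands held 25.6%, 24.8% and 24.7% of the autosomal windows of 750 bases. Near TBX15 and TBX20 in Pfeiffer an island lay 0.5 kb from the start, which is less than the rounding of the gene limits, so those starts cannot be placed. The WSU-DLCL2 island counted at TBX5 reached only 0.999 kb past the start, so that start cannot be placed either. In KARPAS-422 the uncovered starts of TBX2, TBX3, TBX5, TBX15 and T were 4.00, 4.50, 2.00, 12.25 and 12.5 kb from the nearest island. At TBX2, TBX3 and TBX5 the KARPAS-422 islands thus came within 5 kb of the start without covering it.

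**Figure D4:**
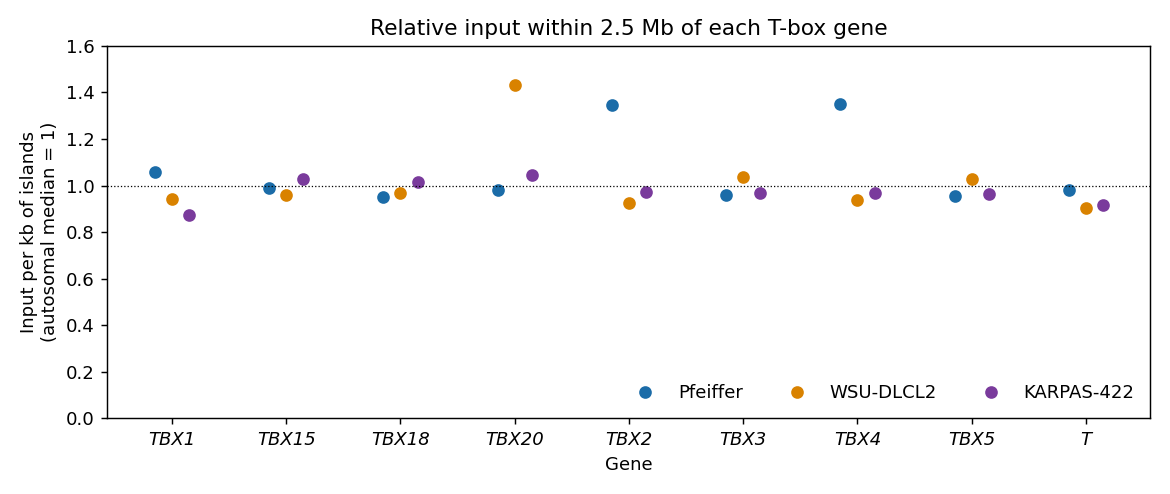
Points give input reads per kb of islands within 2.5 Mb of each gene, relative to the median over the autosomes of that line, so that 1 on the vertical axis is the line's own median. All points lie between 0.873 and 1.06 except Pfeiffer at TBX2 (1.35) and TBX4 (1.35) and WSU-DLCL2 at TBX20 (1.43).

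The lines agreed on T-box genes about as much as, or less than, they did over the autosomes. The Jaccard index, shared bases over bases covered in either line, was 0.527 inside the 9 spans for Pfeiffer and WSU-DLCL2, 0.444 for KARPAS-422 and Pfeiffer, and 0.554 for KARPAS-422 and WSU-DLCL2. Over all autosomes it was 0.576, 0.555 and 0.553, and the differences from the spans were not tested. By gene the index ran from 0.875 to 0.974 at TBX1 and from 0.923 to 1.00 at TBX4 over the pairs of lines. It was 0, 0.0217 and 0 at TBX3, and 0, 0.0341 and 0 at T, in the same order of pairs. TBX1 and TBX4 were thus held in common, and TBX3 and T were not. At TBX1 the left limit lay 39.0 kb further right in WSU-DLCL2 than in Pfeiffer and 61.5 kb further right in KARPAS-422 than in Pfeiffer. These are limits of the island over the gene, and other islands lay further left in each line.

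The rule's distance decided a few memberships. The Pfeiffer island chr12:114742501-114786000 near TBX5 (fold 1.55) and the KARPAS-422 island chr17:59453251-59472000 near TBX2 lay exactly 5000 bases from the gene and entered by 1 base. Just outside was the KARPAS-422 island chr12:114721501-114782250 (fold 1.76), 8750 bases from TBX5. With the gene limits alone, KARPAS-422 had an island at 6 genes in place of 8, since those near TBX3 and T do not touch the gene.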

How the data were processed

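The submitters' processing notes name Bowtie, hg19 and SICER, which calls islands. Their versions and any read filters are not given in the labels or files. Window (750 bases), gap (2250 bases) and false discovery rate (0.001) are in the names of the deposited lists. Each list holds, as deposited by the authors, counts of H3K27me3 and input reads per island, a p-value, a fold (ratio) over input and a q-value. The fold equals the ratio of the counts divided by 1 constant per list (1.16, 1.27 and 1.65). Positions were converted to count from 1. Covered share, domain limits and reads were computed for the 9 genes, all of which are named by rule. Strands came from RefSeq for 6 genes and from general knowledge for TBX2, TBX3 and TBX15. Relative input pooled islands within 2.5 Mb (at least 30 kb of islands), over the median of autosomal positions 1 Mb apart. Windows of 39 kb tiled the 22 autosomes, gaps in the assembly included. Full library depth is unknown. Fold intervals are exact 95% counting intervals, tested on simulated counts. Alternatives for covered shares were judged against 95% Wilson intervals over windows of 750 bases, which are not independent. Members and lists were chosen with earlier results of these data known. The planned results on other T-box genes and B cell markers were not run, as no hg19 annotation was used. Scripts ran in Python 3.11.15 with scipy 1.17.1, pandas 2.3.3, numpy 2.4.6 and matplotlib 3.10.9.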

Additional observations from a re-analysis of the deposited data

How the results depend on the processing

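A fold of at least 2 removed most islands by construction. It left an island at 2, 1 and 4 genes in Pfeiffer, WSU-DLCL2 and KARPAS-422, with 2, 0 and 1 genes covered over 90% and a median covered share of 0% in each. It left 1 gene with an island in all 3 lines, and the median fold in WSU-DLCL2 was then 2.73. At a false discovery rate of at most 1e-10 the median covered share was 10.2% for WSU-DLCL2 and 17.3% for KARPAS-422, with fewer islands left, and 6 genes still had an island in every line. With gene limits alone it was 100% in Pfeiffer. With gene limits alone, 5, 3 and 2 genes were covered over 90% in Pfeiffer, WSU-DLCL2 and KARPAS-422. With 10 kb around each gene, 3, 2 and 1 were. With 50% of the span required in every line, 3 genes qualified. Reads per kb counted inside the spans only were 23.8 in Pfeiffer and 24.2 in WSU-DLCL2. With 50 kb around each gene the Jaccard index of Pfeiffer and WSU-DLCL2 was 0.454. Joining islands under 5 kb apart left the numbers of genes with an island and of genes covered over 90%, the median covered share and the median fold of each line within the limits used; other summaries were not run with it. Of the values per gene, 103 covered shares and 84 folds stayed within their intervals under the alternatives, and 32 and 8 did not. A gene left without an island under an alternative has no fold and is in neither count of folds. The unchanged shares include those of TBX18, which were 0% throughout. No paired analysis was possible because each line has 1 immunoprecipitated library. Full library depth is unknown, so how depth limits the calls was not tested.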

Other observations

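Runs of islands separated by under 10 kb, a distance chosen after the data had been seen, extended well past several T-box genes. The run that holds TBX2 and TBX4 was 333.75 kb long in Pfeiffer, 216.75 kb in WSU-DLCL2 and 235.5 kb in KARPAS-422, in 3, 4 and 6 islands. The run at TBX1 was 324.75, 258.75 and 100.5 kb long and went 235, 230 and 68.5 kb past the upstream end of the gene. The run at TBX20 was 384.75 kb in WSU-DLCL2, where relative input was 1.43, against 42.75 kb in Pfeiffer and 13.5 kb in KARPAS-422. The run at T was 156.75 kb in Pfeiffer and 18.0 kb in KARPAS-422.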
